A study of Mus musculus with 15 samples.

Results

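The genes described here are 37 mouse genes that take up, activate and burn fatty acids in the liver, make or use ketone bodies, or are well-known transcriptional targets of the fatty acid receptor PPAR-alpha. They were chosen by gene symbol from the 18131 genes of the count table, and all 37 were found. RNA from mouse liver was sequenced in 15 libraries, which give the level of each gene as an expected count and as CPM, the count per 1e6 of a library's scaled total. Male C57BL/6 mice labelled Sirt3-/- on chow with 8% NaCl (KO HSD) or with 0.4% NaCl (KO NSD) were compared with wild-type C57BL/6 males on the same diets (WT HSD and WT NSD), with 3 libraries per group in these 4 groups. The 3 remaining libraries, titled by diet without a genotype, are wild type by their characteristics and are kept apart here (AWT HSD, 2 libraries on 8% NaCl, and AWT NSD, 1 library on 0.4%). Per the labels all mice were 6 months old and entered the study at 6 weeks of age. The diet lasted 4 months by the protocol and 8 weeks by the characteristics. Which part of Sirt3 the knockout allele removes, and whether each library is 1 animal, is not given in the sources used, so p-values measure only how far these samples differ among themselves, which may be technical.

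Fatty acids enter hepatocytes with the help of carriers such as CD36, are carried in the cytosol by FABP1, and cross into mitochondria as carnitine esters through CPT1A, SLC25A20 and CPT2. A family of chain-length-specific dehydrogenases, hydratases and thiolases then shortens them, passing electrons to the electron transfer flavoprotein, and the acetyl-CoA that results can leave the liver as ketone bodies. Very long and branched chains are shortened in peroxisomes, and CYP4A enzymes hydroxylate the end of the chain in the endoplasmic reticulum. PPAR-alpha, bound to RXR, raises many of these genes in fasting, and its targets include the hormone gene Fgf21. SIRT3 is a mitochondrial deacetylase whose known substrates include the long-chain acyl-CoA dehydrogenase encoded by Acadl.

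RefSeq promoter windows on build GRCm38.p6 were at hand for 29 of the 37 genes, 32 windows in all. The 250 bases before the transcript start of each window were read, and that start need not be the outermost of the gene. The window of Fabp1 is shown because Fabp1 had the highest level per transcript length of the 37 genes, that of Fgf21 because its level differed most between the WT HSD libraries, that of Cpt1a because its enzyme is the gate of mitochondrial oxidation, and that of Hadhb because it separates Hadhb from Hadha, the gene of the other trifunctional protein subunit, on the opposite strand. Each is printed 5′ to 3′ on the strand of the gene, in lower case with the motif matches named after the sequences in capitals.
Fabp1, chr6:71199629-71199878, plus strand: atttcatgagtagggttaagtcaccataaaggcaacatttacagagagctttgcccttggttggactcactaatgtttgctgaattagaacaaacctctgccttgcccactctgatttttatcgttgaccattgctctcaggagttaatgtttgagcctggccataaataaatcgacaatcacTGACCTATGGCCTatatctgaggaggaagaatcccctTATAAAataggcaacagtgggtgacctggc
Fgf21, chr7:45615491-45615740, minus strand: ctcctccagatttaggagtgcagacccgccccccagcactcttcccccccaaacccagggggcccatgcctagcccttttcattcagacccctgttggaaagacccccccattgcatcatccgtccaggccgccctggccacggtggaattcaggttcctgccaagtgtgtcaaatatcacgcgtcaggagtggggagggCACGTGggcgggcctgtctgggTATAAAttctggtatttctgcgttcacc
Cpt1a, chr19:3323051-3323300, plus strand: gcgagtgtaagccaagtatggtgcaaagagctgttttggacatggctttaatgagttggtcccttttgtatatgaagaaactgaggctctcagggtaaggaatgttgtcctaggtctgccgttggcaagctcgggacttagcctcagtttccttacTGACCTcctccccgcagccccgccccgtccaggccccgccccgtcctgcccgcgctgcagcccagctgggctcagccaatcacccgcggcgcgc
Hadhb, chr5:30155003-30155252, plus strand: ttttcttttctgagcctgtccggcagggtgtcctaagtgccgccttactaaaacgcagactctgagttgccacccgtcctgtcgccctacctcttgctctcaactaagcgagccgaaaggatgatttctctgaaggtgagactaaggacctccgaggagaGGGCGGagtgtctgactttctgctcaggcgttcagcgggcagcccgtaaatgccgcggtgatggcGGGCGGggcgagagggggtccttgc
In the Fabp1 window the first capitals match 2 copies of AGGNCA spaced by 1 base of any kind (N stands for any base), the direct repeat (DR1) form that PPAR-alpha with RXR binds, on the opposite strand at positions -67 to -55, and the second capitals are the TATA motif TATAAA at -30 to -25. Motifs were searched on both strands. The repeat was found in 0.338% of 32851 promoter windows of this length and in 1 of the 32 windows of these genes. TATAAA was found in 12.4% of all windows and in 2 of the 32, those of Fabp1 and Fgf21. The Fgf21 capitals mark the E-box CACGTG, which reads the same on both strands, at -50 to -45 and TATAAA at -28 to -23. The E-box was found in 6.02% of all windows and in 1 of the 32. The Cpt1a capitals mark AGGTCA, the core motif of nuclear receptors, on the opposite strand at -94 to -89, a motif in 14.0% of all windows and in 6 of the 32. The Cpt1a window lies inside the full span of the gene (chromosome 19, 3322326 to 3385735), so these positions count from an internal start. In the Fabp1 window AGGTCA lies on the opposite strand inside the direct repeat, at -67 to -62, and again, not in capitals, at -9 to -4. The Hadhb capitals are 2 GC boxes (GGGCGG) at -90 to -85 and -25 to -20, a motif in 32.7% of all windows and in 17 of the 32. GC boxes were put in capitals only there, and 1 in the Fgf21 window, at -45 to -40, overlaps the E-box by a base. Hadhb (chromosome 5, 30155253 to 30184593) starts 273 bases past the end of Hadha (chromosome 5, 30119423 to 30154980). These matches describe letters and were not tested as binding sites.

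Totals lay between 15726897 and 19539406 expected counts per library. Sirt3 transcript was present in every library, with 62.6, 68.8 and 56.6 CPM in KO HSD, 64.8, 43.4 and 43.8 in KO NSD, 83.9, 65.7 and 65.7 in WT HSD and 49.8, 52.8 and 53.1 in WT NSD, so knockout libraries are named by their label alone. Libraries KO NSD 1 and KO NSD 3 nearly lacked the Y-linked transcript Ddx3y (0.199 and 0 CPM, against 20.6 to 43.6 CPM in the other 13) although their labels say male. They also held 129.8 and 271 CPM of the female-biased gene Sult2a1, which stood at 0.0551 CPM in KO NSD 2 and at 0 elsewhere. KO HSD 1 had a summed level of 613 CPM over 10 female-biased genes, against 78.7 and 5.78 CPM in its group. Libraries WT HSD 3, WT NSD 3, KO HSD 3 and KO NSD 2 each lay farther from both others of their group than those lay from each other, by the chi-square of their counts per gene (for example 219 and 181 in WT HSD, against 48.3). Dbp, a clock output gene whose level swings over the day, had 126, 99.7 and 106 CPM in the KO HSD libraries, 253, 74.4 and 41.1 CPM in the KO NSD libraries, 237, 228 and 12.4 CPM in the WT HSD libraries and 1.31, 0.868 and 18.2 CPM in the WT NSD libraries, and 103 and 2.08 CPM in AWT HSD and 246 CPM in AWT NSD. Dbp was thus low in WT NSD, in WT HSD 3 and in AWT HSD 2, and the time of day of collection is not given in the sources used. Hepatocyte marker genes were high in every library (9 markers, 106460 to 169590 CPM in sum) beside the liver label.

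Levels are compared between genes as FPKM, fragments per length of transcript and library total, as the authors deposited them. Per transcript length, Fabp1 stood highest of the 37, with a median of 4700.2 FPKM over the 15 libraries and a range of 1437 to 12051 FPKM, and it ranked 19 among all genes of the table. Next came Acaa1b, a peroxisomal thiolase (431 FPKM), Acaa2, the mitochondrial thiolase (400.4 FPKM), and Etfb, a subunit of the electron transfer flavoprotein (292 FPKM). Most mitochondrial enzymes followed between Hadh at 150.3 FPKM and Decr1 at 39.1 FPKM. Fgf21 and Pdk4 were lowest, both with a median of 1.29 FPKM. The omega-hydroxylase genes Cyp4a14 and Cyp4a10 had medians of 129.8 and 124 FPKM and the widest absolute ranges after Fabp1, from 2.08 to 2365 FPKM and from 18.6 to 2559.8 FPKM.

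**Figure D1:**
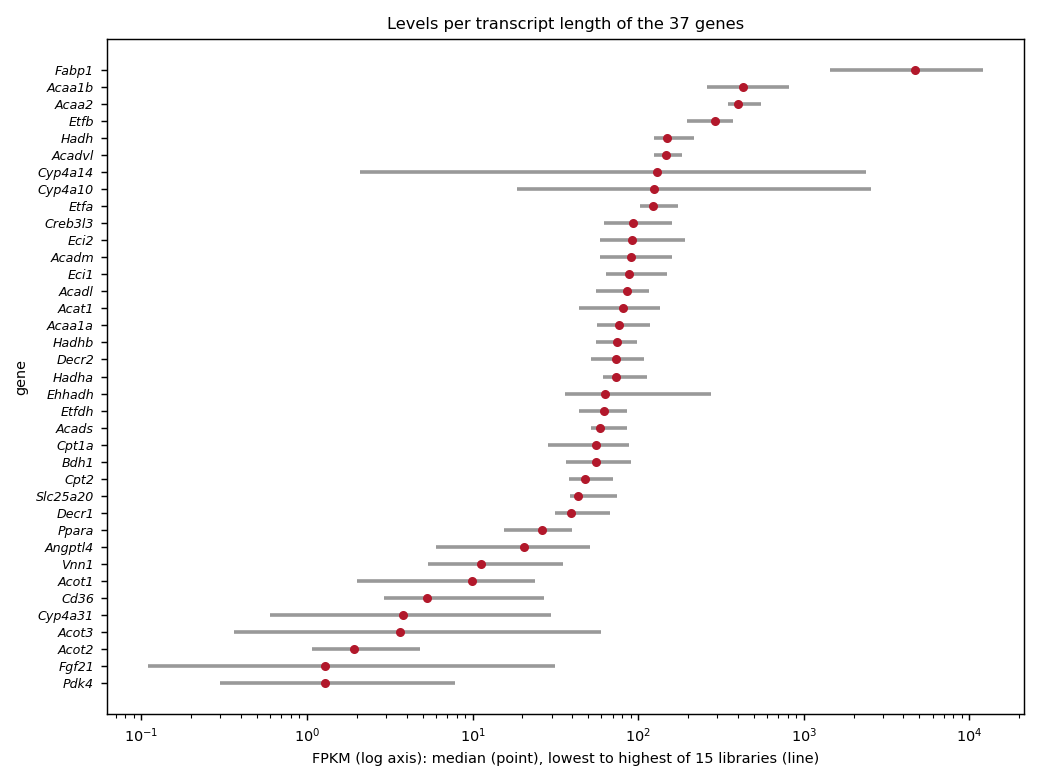
Level per transcript length of each of the 37 genes, as FPKM on a log axis; the point is the median and the line runs from the lowest to the highest of 15 libraries. Fabp1 stands far to the right at 4700.2 FPKM, and Cyp4a14 spans 2.08 to 2365 FPKM.

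The 37 genes split by role in how much they varied. The 18 genes of the mitochondrial core (carnitine shuttle, mitochondrial beta-oxidation, electron transfer flavoprotein and ketone bodies) had a median standard deviation of 0.29 on the log2 CPM scale over the 15 libraries, against 0.36 for all 13864 genes tested, and the highest library was under 3 times the lowest for 17 of them. The exception was Eci1, at 3.02 times. The 8 genes grouped as other PPAR-alpha targets had a median standard deviation of 1.43, and all 8 lay above the median of all genes. The secreted targets Fgf21 and Angptl4 lay at 2.14 and 1.02, and the 5 peroxisomal genes at a median of 0.39. In the heat map a single library, WT HSD 1, was the highest of the 15 for 19 of the 37 genes, 11 of them in the core, and AWT HSD 2 was the lowest for 10.

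**Figure D2:**
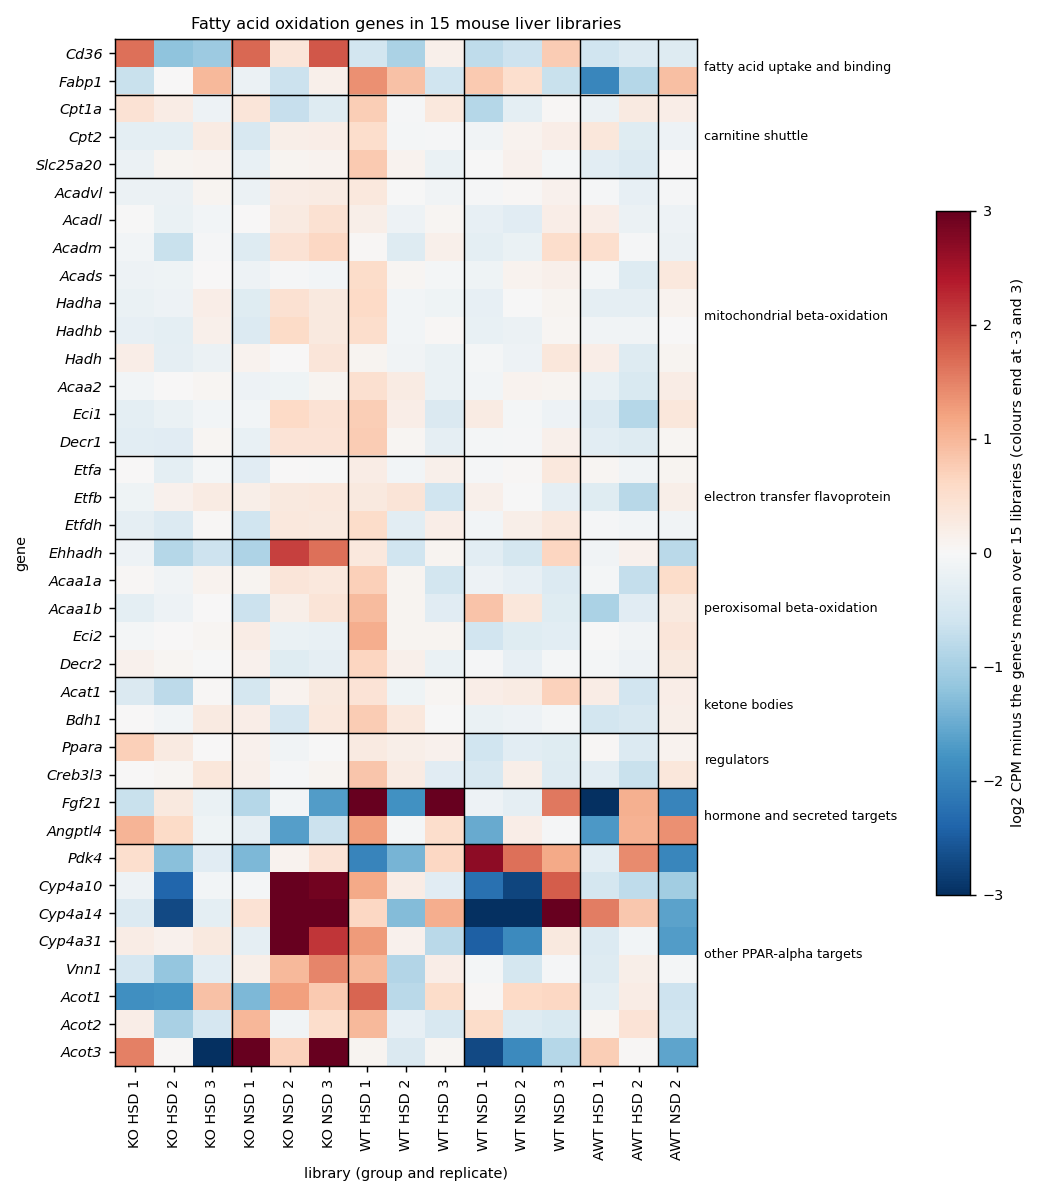
Log2 CPM of each of the 37 genes (rows, by role) minus its mean over 15 libraries (columns, by group); red is above and blue below the mean, and colours end at -3 and 3. The mitochondrial rows are pale in every group, the Cyp4a rows are dark red in KO NSD 2 and KO NSD 3, and the WT HSD 1 column is red through most rows.

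Values by library are given in the order of replicates 1, 2 and 3. In uptake and binding, Fabp1 had 1444, 2317 and 4472 CPM in the KO HSD libraries, 2011, 1472 and 2525 CPM in the KO NSD libraries, 5865, 4181 and 1513 CPM in the WT HSD libraries and 3906, 3255 and 1434 CPM in the WT NSD libraries, and 592 and 1262 CPM in AWT HSD and 4241 CPM in AWT NSD. Its levels overlapped between all 4 groups, and the 2 AWT HSD libraries were the lowest of the 15. Cd36, the fatty acid translocase, ranged from 8.57 CPM in KO HSD 2 to 71.7 CPM in KO NSD 3, and its 3 highest libraries, KO NSD 3, KO NSD 1 and KO HSD 1, were those with the most female-biased transcript. In KO NSD against WT NSD its log2 fold change was 1.48 ± 0.80 (SE, adjusted p = 0.466), and 0.38 without KO NSD 1 and KO NSD 3. The part of sex-biased expression in this difference was not tested. Cd36 falls outside the rule for genes named with full values and was chosen after its values were seen.

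Of the carnitine shuttle, Cpt1a had 324, 278 and 215 CPM in the KO HSD libraries, 307, 148 and 184 CPM in the KO NSD libraries, 397, 232 and 297 CPM in the WT HSD libraries and 133, 194 and 242 CPM in the WT NSD libraries. WT HSD 1 was highest and WT NSD 1 lowest, and the groups overlapped. Its log2 fold change in WT HSD against WT NSD was 0.71 ± 0.31 (SE, adjusted p = 1). Cpt2 ranged from 84.1 to 168 CPM and Slc25a20 from 59.9 to 139 CPM over the 15 libraries.

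Among the 10 mitochondrial beta-oxidation enzymes, Acadm, the medium-chain acyl-CoA dehydrogenase, had 192, 128 and 201 CPM in the KO HSD libraries, 156, 274 and 315 CPM in the KO NSD libraries, 209.6, 157 and 227 CPM in the WT HSD libraries and 167, 179 and 296 CPM in the WT NSD libraries. Its highest values were in KO NSD 3, WT NSD 3 and AWT HSD 1, so that both genotypes held a high library. Eci1, an isomerase for unsaturated chains, had 81.7, 86.8 and 94.2 CPM in the KO HSD libraries, 94.5, 152 and 135 CPM in the KO NSD libraries, 168, 114 and 74.0 CPM in the WT HSD libraries and 119.6, 95.6 and 90.1 CPM in the WT NSD libraries. Every KO HSD value of Eci1 lay below every KO NSD value, with KO NSD 1 only just above KO HSD 3. Acadl showed the same order of groups in KO, and KO NSD 3, KO NSD 2 and WT NSD 3 were its 3 highest libraries. Acadvl, the very-long-chain dehydrogenase, varied least of the enzymes in this step (271 to 404 CPM), and Hadha, Hadhb, Hadh, Acads, Acaa2 and Decr1 each stayed within a 1.68- to 2.21-fold range.

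Etfb had 231, 277 and 298 CPM in the KO HSD libraries, 287, 309.7 and 315 CPM in the KO NSD libraries, 306, 328 and 167 CPM in the WT HSD libraries and 279.6, 252 and 208 CPM in the WT NSD libraries. All 3 KO NSD values lay above the WT NSD values, WT HSD 3 was the lowest of the 12, and the 2 AWT HSD libraries held 196 and 141 CPM. Etfa (152 to 239 CPM) and Etfdh, the dehydrogenase that hands the electrons to ubiquinone (93.6 to 206 CPM), overlapped between all groups.

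In the peroxisome, Ehhadh, the bifunctional enzyme, had 191, 118 and 137 CPM in the KO HSD libraries, 111, 875 and 664 CPM in the KO NSD libraries, 261, 140.4 and 223 CPM in the WT HSD libraries and 169.9, 147 and 331 CPM in the WT NSD libraries. KO NSD 2 and KO NSD 3 stood above all other libraries and WT NSD 3 came next, while KO NSD 1 was the lowest of the 15. Eci2, a peroxisomal isomerase, had 130.2, 137 and 141 CPM in the KO HSD libraries, 158, 119 and 117 CPM in the KO NSD libraries, 289, 144 and 144 CPM in the WT HSD libraries and 91.0, 105 and 110.3 CPM in the WT NSD libraries. Its WT NSD values lay below every other value in the 4 groups, and WT HSD 1 was about 2 times the next. AWT NSD, at 174 CPM, lay above AWT HSD at 135 and 127 CPM. Acaa1a, a peroxisomal thiolase, had 137, 125 and 143 CPM in the KO HSD libraries, 141, 173 and 166 CPM in the KO NSD libraries, 218, 142 and 91.1 CPM in the WT HSD libraries and 119.7, 112 and 100.2 CPM in the WT NSD libraries. Its KO NSD values all lay above its WT NSD values. Acaa1b ranged from 358 CPM in AWT HSD 1 to 1332 CPM in WT HSD 1, and Decr2, a reductase for unsaturated chains, from 116 CPM in KO NSD 2 to 234 CPM in WT HSD 1.

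For ketone bodies, Acat1, the mitochondrial acetoacetyl-CoA thiolase, had 203, 159 and 279.5 CPM in the KO HSD libraries, 189.7, 293 and 338 CPM in the KO NSD libraries, 361, 251 and 285 CPM in the WT HSD libraries and 314, 327 and 439.7 CPM in the WT NSD libraries. KO HSD 2 was the lowest of the 15 libraries and WT NSD 3 the highest, and KO NSD overlapped WT HSD. Bdh1, which interconverts acetoacetate and beta-hydroxybutyrate, ranged from 120 to 297 CPM.

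Of the regulators, Ppara itself had 304, 225 and 187 CPM in the KO HSD libraries, 206, 172 and 185 CPM in the KO NSD libraries, 225, 210.3 and 204 CPM in the WT HSD libraries and 123, 149 and 145 CPM in the WT NSD libraries, and 193 and 139.9 CPM in AWT HSD and 201 CPM in AWT NSD. The WT NSD values were the 3 lowest of the 12 libraries, and did not overlap with KO NSD or with WT HSD. Creb3l3, a liver transcription factor that acts with PPAR-alpha on Fgf21, ranged from 137 to 383 CPM and had its highest value in WT HSD 1.

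Fgf21, the fasting hormone gene, had 0.910, 1.79 and 1.28 CPM in the KO HSD libraries, 0.795, 1.38 and 0.440 CPM in the KO NSD libraries, 30.5, 0.401 and 25.5 CPM in the WT HSD libraries and 1.31, 1.22 and 4.45 CPM in the WT NSD libraries, and 0.0931 and 3.09 CPM in AWT HSD and 0.349 CPM in AWT NSD. WT HSD 1 and WT HSD 3, with 564 and 548 expected counts, stood apart from the other 13 libraries, which had 2 to 74, while WT HSD 2 had 7. Fgf21 was therefore high in 2 of 3 WT HSD libraries and in no KO library. Angptl4, a secreted inhibitor of lipoprotein lipase, had 77.4, 57.4 and 35.1 CPM in the KO HSD libraries, 31.7, 12.3 and 24.5 CPM in the KO NSD libraries, 91.3, 37.1 and 55.2 CPM in the WT HSD libraries and 13.5, 44.2 and 37.2 CPM in the WT NSD libraries. All KO HSD values lay above all KO NSD values, and the wild-type groups overlapped. AWT NSD was the highest of the 15 libraries at 99.8 CPM, and AWT HSD had 11.7 and 79.2 CPM.

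Pdk4, the kinase that shuts pyruvate dehydrogenase when fat is burned, had 6.53, 1.90 and 3.61 CPM in the KO HSD libraries, 1.79, 4.90 and 6.11 CPM in the KO NSD libraries, 1.14, 1.72 and 7.08 CPM in the WT HSD libraries and 29.5, 14.4 and 10.1 CPM in the WT NSD libraries. The 3 WT NSD values were the highest of the 12 libraries. The additional wild-type libraries did not keep this order, with 3.68 and 12.3 CPM in AWT HSD and 1.16 CPM in AWT NSD. The order was another for Cyp4a10, Cyp4a14, Cyp4a31 and Acot3, for which WT NSD 1 and WT NSD 2 were among the 3 lowest of these 12.

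Cyp4a14, one of the CYP4A omega-hydroxylase genes, had the widest spread of the 37 genes. Cyp4a14 had 165, 33.5 and 179.9 CPM in the KO HSD libraries, 297, 6352 and 2732 CPM in the KO NSD libraries, 338, 89.5 and 472 CPM in the WT HSD libraries and 9.59, 5.73 and 1925 CPM in the WT NSD libraries, and 638 and 384 CPM in AWT HSD and 72.8 CPM in AWT NSD. Cyp4a10 had 265, 56.3 and 277 CPM in the KO HSD libraries, 283, 5785 and 2207 CPM in the KO NSD libraries, 647, 342 and 235 CPM in the WT HSD libraries and 62.1, 44.0 and 1045 CPM in the WT NSD libraries, and 203 and 174 CPM in AWT HSD and 142 CPM in AWT NSD. The highest library exceeded the lowest 1109-fold for Cyp4a14 and 131-fold for Cyp4a10, and both ends were normal salt libraries. KO NSD 2, KO NSD 3 and WT NSD 3 were the 3 highest for Cyp4a10, Cyp4a14, Ehhadh and Acadl, while KO NSD 1, at 283 CPM of Cyp4a10 and 297 CPM of Cyp4a14, lay far below KO NSD 2 and KO NSD 3 and above all KO HSD libraries. WT NSD 3 stood above all WT HSD and KO HSD libraries in both genes. Cyp4a31 had 10.7, 10.1 and 11.2 CPM in the KO HSD libraries, 7.65, 80.2 and 40.5 CPM in the KO NSD libraries, 22.1, 10.1 and 5.22 CPM in the WT HSD libraries and 1.66, 2.43 and 11.2 CPM in the WT NSD libraries. It was highest in KO NSD 2 and KO NSD 3 as well, but WT NSD 3 lay within the range of WT HSD.

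**Figure D3:**
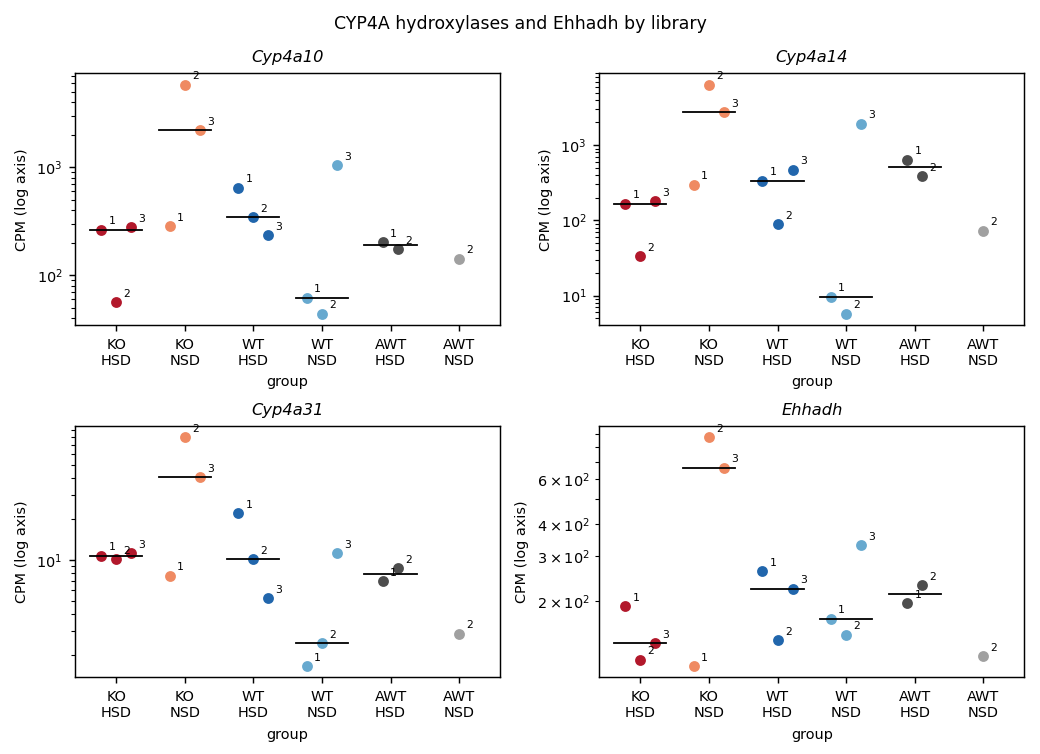
CPM (log axis) of Cyp4a10, Cyp4a14, Cyp4a31 and Ehhadh in each library by group, with the replicate number beside each point and a line at the group median where there are 2 or more libraries. Libraries 2 and 3 of KO NSD are at the top of each panel, and library 3 of WT NSD stands far above libraries 1 and 2 of its group for Cyp4a10 and Cyp4a14.

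Cyp4a14 (chromosome 4, 115486200 to 115496158), Cyp4a10 (115518287 to 115533649) and Cyp4a31 (115563627 to 115579015) are neighbours, and they did not keep a fixed ratio. The FPKM of Cyp4a14 was 1.55 to 2.64 times that of Cyp4a10 in WT NSD 3, WT HSD 3 and both AWT HSD libraries, 0.90 to 1.05 times in KO NSD, 0.50 to 0.55 times in KO HSD, and 0.11 to 0.44 times in WT HSD 1, WT HSD 2, WT NSD 1, WT NSD 2 and AWT NSD. Cyp4a10 shares 29.8% and Cyp4a31 20.6% of the 50-base words of their transcripts with other genes, and Cyp4a14 0.245%, so values of Cyp4a10 and Cyp4a31 depend on how the authors' counting divided reads. The same holds for the acyl-CoA thioesterase cluster on chromosome 12 (Acot2, Acot1 and Acot3 share 27.7%, 32.7% and 19.1%). It also holds for Acaa1a and Acaa1b (26.7% and 35.5%). Hadhb and Etfb share 57.5% and 57.7%, but fractions in the expected counts, which divided reads leave, showed in only 3 and 0 of the 15 libraries. For Cyp4a10 they showed in all 15, and for Cyp4a14 in 7. They also showed in all 15 for Pdk4, Eci1 and Decr2, which share only 1.41%, 2.01% and 2.01%.

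Acot3, a peroxisomal acyl-CoA thioesterase, had 28.3, 10.1 and 1.11 CPM in the KO HSD libraries, 156, 16.0 and 112 CPM in the KO NSD libraries, 10.5, 7.27 and 10.3 CPM in the WT HSD libraries and 1.48, 2.60 and 5.47 CPM in the WT NSD libraries, and 16.5 and 10.2 CPM in AWT HSD and 3.26 CPM in AWT NSD. KO NSD 1, KO NSD 3 and KO HSD 1 were its 3 highest libraries, the same 3 as for Cd36, and KO HSD 3 was its lowest. Its neighbours Acot1 (3.21 to 38.6 CPM) and Acot2 (2.52 to 9.89 CPM) did not have these 3 libraries at the top. Vnn1, a pantetheinase, had 17.8, 11.3 and 20.1 CPM in the KO HSD libraries, 28.2, 49.2 and 69.3 CPM in the KO NSD libraries, 49.5, 13.8 and 28.8 CPM in the WT HSD libraries and 24.4, 17.4 and 24.4 CPM in the WT NSD libraries. KO NSD lay wholly above WT NSD and above KO HSD.

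**Figure D4:**
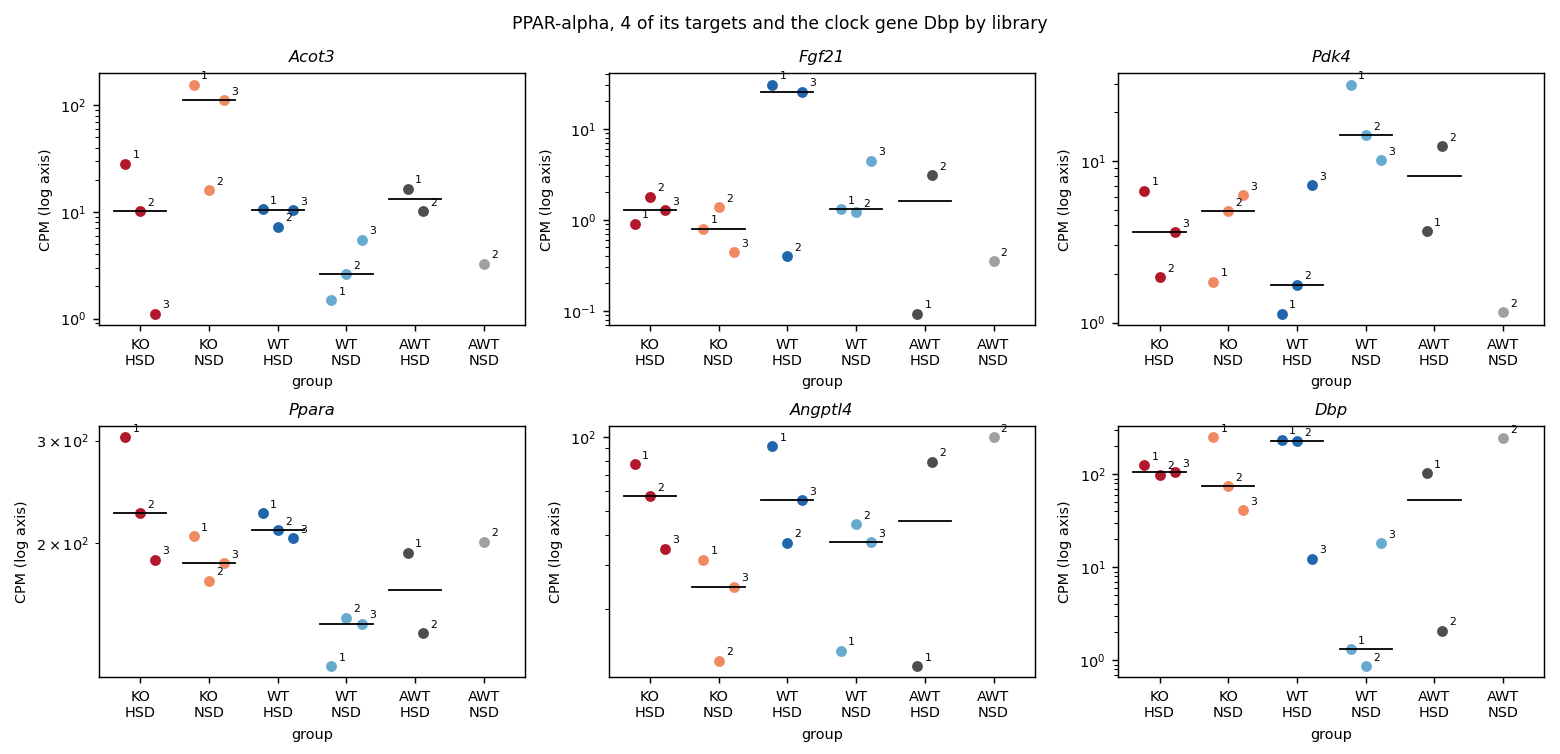
CPM (log axis) of Acot3, Fgf21, Pdk4, Ppara and Angptl4 and of the clock gene Dbp in each library by group, with the replicate number beside each point and a line at the group median. Fgf21 is high in libraries 1 and 3 of WT HSD, and of the 12 libraries of the first 4 groups the WT NSD libraries are highest for Pdk4 and lowest for Ppara.

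Group effects were tested by edgeR's quasi-likelihood test over 13051 genes with Benjamini-Hochberg adjustment, and a gene was called at an adjusted p below 0.05. With 3 libraries against 3, an exact permutation test on a single gene could not give a p below 0.1. In these bulk samples, fewer cells of a type and less RNA per cell cannot be told apart. All 37 genes passed the filter on low counts. Each value below is a log2 fold change, the first group over the second, with its standard error. The comparisons share groups: WT NSD is the comparison group both for KO NSD and for WT HSD, and KO NSD, KO HSD and WT HSD each enter 2 comparisons as well.

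In KO NSD against WT NSD the question is what the label Sirt3-/- goes with on the normal diet. Acot3, Cyp4a31 and Vnn1 had the largest positive differences for their error and Pdk4 the largest negative one, but none of the 37 genes was called (0 of 37), beside 0.414% of all genes (54, of which 31 were higher). Unadjusted, 6 genes (16.2%) had p below 0.05, against 14.3% of all genes. DESeq2, run on every gene with any count, called 645 genes, 3 of them among the 37 (Acot3, Pdk4 and Cyp4a31). No share of all genes was worked out for it, so the 3 are not set against a background. Of the 29 genes that limma-voom called, none was among the 37. The log2 fold change of Acot3 was 4.90 ± 1.18 (SE, adjusted p = 0.091), and it was 2.32 without KO NSD 1 and KO NSD 3. That of Cyp4a31 was 3.08 ± 0.95 (SE, adjusted p = 0.156), that of Vnn1 1.15 ± 0.43 (SE, adjusted p = 0.229) and that of Pdk4 -2.07 ± 0.72 (SE, adjusted p = 0.203). Ppara differed by 0.44 ± 0.18 (SE, adjusted p = 0.291) and Ehhadh by 1.35 ± 0.60 (SE, adjusted p = 0.337). Cyp4a10 and Cyp4a14, for all their height in KO NSD, differed by 2.85 ± 1.41 (SE, adjusted p = 0.42) and 2.27 ± 1.92 (SE, adjusted p = 0.676). Over 22 alternatives they were lowest without KO NSD 2, at 1.70 and 1.23. They were highest without WT HSD 3 and WT NSD 3, at 5.69 and 8.66, an alternative chosen after seeing the data. Groups did not overlap for 6 genes that were higher in KO NSD (Etfb, Acaa1a, Eci2, Ppara, Vnn1 and Acot3; 16.2%, against 9.98% of all genes) and 1 that was lower (Pdk4; 2.7%, against 9.53%). The median log2 fold change was 0.21 over the 37 and 0.01 over all genes, and 24 of the 37 lay above 0 (64.9%, against 51.2% of all genes). Without KO NSD 3 the median was 0.09, with 20 above 0. By role, 8 of 10 mitochondrial beta-oxidation genes lay above 0 with a median of 0.22, and 7 of 8 other PPAR-alpha targets with a median of 1.71, the exception being Pdk4.

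Other measures moved with KO NSD. Of 10 neutrophil markers 6 were called higher in KO NSD than in WT NSD, with 9 above 0 and 1 below. The 1 below was Cxcr2, with means of 5.11 CPM in KO NSD and 5.93 CPM in WT NSD. Summed levels of the 10 were 83.6 to 234 CPM in KO NSD and 9.38 to 21.9 CPM in WT NSD. The 12 Kupffer cell and macrophage markers summed to 375 to 1159 CPM in KO NSD and 209 to 281 CPM in WT NSD, with 0 called by edgeR and all 12 above 0, and the 9 sinusoidal endothelial markers to 158 to 287 CPM in KO NSD and 119 to 199.5 CPM in WT NSD, also with 0 called and all 9 above 0. No marker of either list was at 0 in all libraries. Female-biased genes summed to 80.7 to 3881 CPM in KO NSD and 3.31 to 30.6 CPM in WT NSD. In KO NSD 2, the lowest of its group, 76.8 of the 80.7 CPM were Cyp17a1. That library had 0.0551 CPM of Sult2a1 and 31.4 CPM of Ddx3y. Cyp17a1 had 87.3 and 106.9 CPM in KO NSD 1 and KO NSD 3 and 2.68 to 6.13 CPM in WT NSD. All 10 male-biased genes lay below 0 with 0 called, in sum 108 to 4866.5 CPM in KO NSD and 6369 to 17277 CPM in WT NSD. Dbp was at 41.1 to 253 CPM in KO NSD and 0.868 to 18.2 CPM in WT NSD. Of the adipocyte markers 2 could be tested, and 1, Cfd, was called lower in KO NSD (-7.71 ± 1.33 (SE, adjusted p = 0.0454)). Cfd was near the floor, with 0, 0 and 0 counts in KO NSD and 38, 25 and 10 in WT NSD. The other, Fabp4, lay above 0 and was not called. It had 3.43, 11.1 and 7.63 CPM in KO NSD and 3.20, 4.22 and 4.51 CPM in WT NSD. Without KO NSD 1 and KO NSD 3 edgeR called 0 genes of the whole table, with 969 at an unadjusted p below 0.05. Their part in the differences of the 37 genes was not tested.

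In KO HSD against WT HSD, the same question on the salt-rich diet, most of the 37 genes lay a little lower in KO HSD, with Fgf21 the farthest. The median log2 fold change was -0.25, against -0.01 over all genes, and 31 of 37 lay below 0 (83.8%, against 52.8%). No gene of the 37 was called by edgeR, limma-voom or DESeq2, and in all genes edgeR called 0 (0%), limma-voom 0 and DESeq2 28, with 603 genes at an unadjusted p below 0.05. Among the 37 only Fgf21 had such a p (2.7%, against 4.62% of all genes), with a log2 fold change of -3.83 ± 1.14 (SE, adjusted p = 0.933) that rests on WT HSD 1 and WT HSD 3. Vnn1 differed by -0.91 ± 0.43 (SE, adjusted p = 1), Eci2 by -0.50 ± 0.25 (SE, adjusted p = 1) and Acat1 by -0.48 ± 0.26 (SE, adjusted p = 1). Leaving out WT HSD 1 brought Vnn1 to -0.38 and Eci2 to -0.08. Only Eci2 did not overlap, with KO HSD lower (2.7%, against 3.98% of all genes), and 0 genes lay wholly higher in KO HSD (0%, against 4.05%). Without WT HSD 1 the median of the 37 was -0.05, and 23 lay below 0, and without WT HSD 3 it was -0.40, with 33 below 0. Neutrophil markers summed to 22.05 to 67.01 CPM in KO HSD and 10.7 to 15.68 CPM in WT HSD, and female-biased genes to 5.78 to 613 CPM in KO HSD and 4.58 to 11.1 CPM in WT HSD, with all 8 tested above 0. All 10 male-biased genes (782 to 13075 CPM in KO HSD and 6494 to 18334 CPM in WT HSD, in sum) and all 9 sinusoidal endothelial markers (83.2 to 181 CPM in KO HSD and 162 to 213 CPM in WT HSD) lay below 0. None of these genes was called, and their part was not tested.

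In WT HSD against WT NSD, which asks what the diet goes with in wild-type mice, Eci2, Ppara and Fgf21 were the genes with the largest positive differences for their error and Pdk4 the largest negative one. The median log2 fold change was 0.22 over the 37 genes and 0.02 over all genes, and 28 of 37 lay above 0 (75.7%, against 53.7%). That direction rests on WT HSD 1: without it the median was -0.05, with 15 above 0 and 22 below, and without WT HSD 3 it was 0.37. Of the 37 genes 0 were called by edgeR, limma-voom or DESeq2, and of all genes edgeR called 0 (0%), limma-voom 0 and DESeq2 8. An unadjusted p below 0.05 was reached by 6 of the 37 (16.2%, against 4.47% of all genes, 584). Eci2 differed by 0.91 ± 0.25 (SE, adjusted p = 1) and Ppara by 0.62 ± 0.18 (SE, adjusted p = 1). The value of Eci2 was 0.50 without WT HSD 1. Pdk4 differed by -2.42 ± 0.73 (SE, adjusted p = 1), Fgf21 by 3.02 ± 1.08 (SE, adjusted p = 1). Groups did not overlap for Eci2, Bdh1, Ppara and Acot3, higher in WT HSD (10.8%, against 3.92% of all genes), and for Pdk4, lower (2.7%, against 4.77%). Dbp was at 237, 228 and 12.4 CPM in WT HSD and 1.31, 0.868 and 18.2 CPM in WT NSD, and its part in these differences was not tested.

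In KO HSD against KO NSD, the diet in labelled knockouts, Cyp4a14 and Cyp4a10 lay farthest below 0, and all 8 other PPAR-alpha targets were below 0 with a median of -1.79, while Fgf21 and Angptl4 lay above 0. The median log2 fold change was -0.22, against 0.00 over all genes, and 25 of 37 lay below 0 (67.6%, against 50.4%). The median was -0.39 without KO NSD 1, -0.12 without KO NSD 2 and -0.11 without KO NSD 3. By edgeR 0 of the 37 and 0 of all genes (0%) were called. DESeq2 called 1 of the 37 (Vnn1) among 56 genes, and limma-voom called 0 in both. An unadjusted p below 0.05 was reached by 5 of the 37 (13.5%, against 8.05% of all genes, 1051). Vnn1 differed by -1.58 ± 0.43 (SE, adjusted p = 0.437), Ehhadh by -1.89 ± 0.61 (SE, adjusted p = 0.486) and Angptl4 by 1.30 ± 0.50 (SE, adjusted p = 0.544). Acot3 differed by -2.85 ± 1.05 (SE, adjusted p = 0.544), and by -0.27 without KO NSD 1 and KO NSD 3. Cyp4a10 differed by -3.79 ± 1.47 (SE, adjusted p = 0.551) and Cyp4a14 by -4.63 ± 2.13 (SE, adjusted p = 0.639). Groups did not overlap for Acadl, Eci1, Cyp4a10, Cyp4a14 and Vnn1, lower in KO HSD (13.5%, against 5.82% of all genes), and Angptl4, higher (2.7%, against 5.92%). Female-biased genes summed to 5.78 to 613 CPM in KO HSD and 80.7 to 3881 CPM in KO NSD. Of the 80.7 CPM in KO NSD 2, 76.8 were Cyp17a1. Among 10 male-biased genes 9 lay above 0 and 1 below, in sum 782 to 13075 CPM in KO HSD and 108 to 4866.5 CPM in KO NSD. Neutrophil markers summed to 22.05 to 67.01 CPM in KO HSD and 83.6 to 234 CPM in KO NSD, with 9 below 0 and 1 above. All 12 Kupffer cell and macrophage markers (253 to 578 CPM in KO HSD and 375 to 1159 CPM in KO NSD, in sum) and all 9 sinusoidal endothelial markers (83.2 to 181 CPM in KO HSD and 158 to 287 CPM in KO NSD) lay below 0. None of these markers was called, and their part was not tested.

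**Figure D5:**
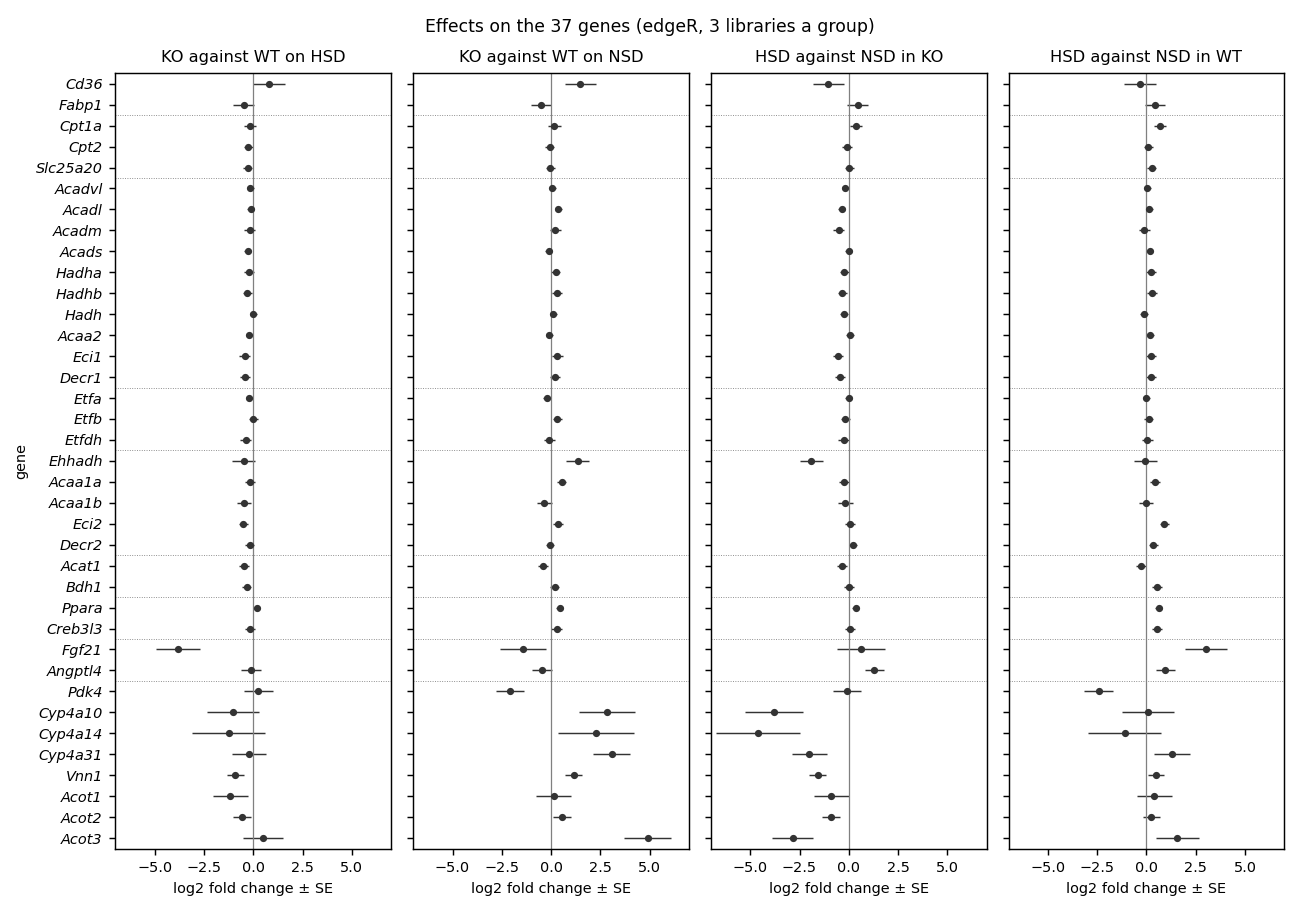
Log2 fold change of each of the 37 genes with its standard error in 4 comparisons of 3 libraries against 3, from edgeR; genes run down the page by role, dotted lines part the roles, and positive values are higher in the group named first. Mitochondrial genes cluster near 0 in each panel, and the widest bars belong to Fgf21, the Cyp4a genes and Acot3.

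The salt effect in KO minus that in WT, the test of whether the diet differences of the genotypes differ, called 0 of the 37 and 0 of all genes (0%) by edgeR. DESeq2 called 0 of the 37 and 8 of all genes, and limma-voom 0 and 0. An unadjusted p below 0.05 was reached by 5 of the 37 (13.5%, against 5.41% of all genes, 706). The difference lay below 0 for 33 of the 37 genes (89.2%, against 52.7% of all genes), with a median of -0.45 against -0.02, including all 10 mitochondrial beta-oxidation and all 5 peroxisomal genes. Without WT HSD 1 the median was -0.23 and 26 lay below 0. Without KO NSD 1 and KO NSD 3 it was -0.34, with 29 below 0. For Vnn1 the difference was -2.06 ± 0.61 (SE, adjusted p = 0.835) and for Acot3 -4.41 ± 1.5 (SE, adjusted p = 0.835).

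Averaged over both diets, KO against WT called 0 of the 37 by edgeR, against 0.873% of all genes (114), with 5 at an unadjusted p below 0.05 (13.5%, against 13.5%). Of the 37, 21 lay below 0 (56.8%, against 50.8%). DESeq2 called Acot3 and Fgf21 of the 37 among 497 genes, and limma-voom called none among 12. The log2 fold change of Acot3 was 2.70 ± 0.76 (SE, adjusted p = 0.154) and that of Fgf21 -2.62 ± 0.81 (SE, adjusted p = 0.186). Averaged over both genotypes, HSD against NSD called 0 of the 37 and 0 of all genes (0%) by edgeR, 0 and 28 by DESeq2, and 0 and 0 by limma-voom. It gave an unadjusted p below 0.05 for 7 of the 37 (18.9%, against 6.11%, 797 genes), with 22 below 0 (59.5%, against 49.3%). The smallest p was that of Ppara at 0.48 ± 0.13 (SE, adjusted p = 0.68), followed by Angptl4 at 1.13 ± 0.35 (SE, adjusted p = 0.698).

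The additional wild-type libraries hold 2 libraries on HSD and 1 on NSD, and were compared in a fit of all 15 libraries and 13864 genes. AWT NSD is a single library whose spread is borrowed from the other groups, on which the errors and p-values of this comparison rest. Of the 10 mitochondrial beta-oxidation genes 8 lay below 0 (median -0.25), while 7 of 8 other PPAR-alpha targets lay above 0 (median 1.15). The 37 genes had a median log2 fold change of -0.13 (0.01 over all genes), and 24 of 37 lay below 0 (64.9%, against 49.1%). Of the 37 genes 0 were called by edgeR, DESeq2 or limma-voom, against 0.0216% of all genes (3, all lower) by edgeR, 28 genes by DESeq2 and 6 by limma-voom. An unadjusted p below 0.05 was reached by 5 of the 37 (13.5%, against 12.1%). Fabp1 differed by -2.19 ± 0.77 (SE, adjusted p = 0.412), Eci1 by -0.96 ± 0.38 (SE, adjusted p = 0.412), Acaa1a by -0.90 ± 0.38 (SE, adjusted p = 0.413) and Etfb by -0.77 ± 0.34 (SE, adjusted p = 0.413). Adipocyte markers summed to 1.58 and 1.75 CPM in AWT HSD and 69.1 CPM in AWT NSD. In AWT NSD Cfd gave 52.1 CPM, Cidea 11.8 CPM and Fabp4 5.07 CPM, while Adipoq and Plin1 were at 0. Dbp was at 103 and 2.08 CPM in AWT HSD and 246 CPM in AWT NSD. The part of these markers and of Dbp in the differences was not tested.

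Around the 37 genes, 45 other fatty acid oxidation enzymes, 30 other PPAR-alpha target genes and 28 partners and regulators of PPAR-alpha were in the table, of which 44, 28 and 28 were tested in the 4 groups. Among the enzymes Acadsb, the short and branched chain acyl-CoA dehydrogenase of isoleucine breakdown, fell in KO NSD, and the other 43 were not called. Acadsb had 86.4, 76.8 and 80.1 CPM in the KO HSD libraries, 53.9, 56.3 and 60.4 CPM in the KO NSD libraries, 93.0, 90.1 and 101 CPM in the WT HSD libraries and 90.0, 90.9 and 109.5 CPM in the WT NSD libraries. Every KO value lay below the WT values of its diet, but with 100.0 and 85.1 CPM in AWT HSD and 79.4 CPM in AWT NSD the additional wild-type libraries reached into the range of KO HSD. Its log2 fold change was -0.76 ± 0.14 (SE, adjusted p = 0.0454) in KO NSD against WT NSD, -0.49 ± 0.10 (SE, adjusted p = 0.0436) averaged over both diets, and -0.22 ± 0.14 (SE, adjusted p = 1) in KO HSD against WT HSD. The call on the normal diet was lost in 11 of 22 alternatives, among them leaving out KO NSD 1 and KO NSD 3, with the value between -0.82 and -0.68 throughout. The call averaged over both diets was lost in 17 of 21 alternatives, with the value between -0.53 and -0.42. Among the other PPAR-alpha targets Fitm1, which helps form lipid droplets, fell in KO averaged over both diets, at -1.82 ± 0.34 (SE, adjusted p = 0.0436), a call lost in 14 of 21 alternatives. Fitm1 had 10.3, 18.5 and 18.9 CPM in the KO HSD libraries, 6.26, 9.36 and 6.01 CPM in the KO NSD libraries, 49.3, 25.8 and 18.0 CPM in the WT HSD libraries and 69.5, 51.3 and 18.7 CPM in the WT NSD libraries. WT NSD 3 and WT HSD 3 were the lowest of the 6 WT libraries and overlapped KO HSD, as did AWT HSD at 18.1 and 15.697 CPM. Among the partners and regulators 0 genes were called by edgeR in any of the 8 comparisons, and the smallest adjusted p was 0.14 in KO NSD against WT NSD, for Ppard, the gene of PPAR-delta, at -2.10 ± 0.63 (SE, adjusted p = 0.14). Ppard stood at 13.0, 10.2 and 10.8 CPM in KO NSD and 76.7, 63.1 and 6.61 CPM in WT NSD, so the value rests on WT NSD 1 and WT NSD 2. In the other comparisons no further gene of these 3 lists was called, and Fitm1 was at -2.69 ± 0.50 (SE, adjusted p = 0.0505) in KO NSD against WT NSD. Over KO NSD against WT NSD the medians of the 3 lists were -0.03, -0.17 and -0.03, where the 37 genes had 0.21 and all genes 0.01.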

How the data were processed

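Polyadenylated RNA from liver was sequenced in 15 libraries. Reads were aligned with Bowtie2 2.2.5 to mm10 and quantified with RSEM 1.2.8, per the submitters' processing notes. The annotation and strandedness are not given in the sources used. The authors deposited RSEM expected counts and FPKM per gene, and FPKM were used only to compare levels between genes. Expected counts were rounded and tested with edgeR 4.0.16 (quasi-likelihood, TMM, filterByExpr) in R 4.3.3, for the 12 libraries of the 4 groups (13051 genes) and, for the additional set, all 15 (13864 genes). limma-voom 3.58.1 and DESeq2 1.42.0 were alternatives, with other normalization, no filter, left-out libraries and a replicate block. CPM use TMM over 15 libraries, and log2 CPM a prior count of 0.5. The script was tested on simulated data. Totals of 15726897 to 19539406 counts set the counting precision. Over genes together it is finer than the spread between libraries (chi-square per gene of 34.8 to 314 between libraries of a group). It was not compared with the spread gene by gene, and it is coarse where counts are few. Fgf21 had 2 to 564 counts and Pdk4 20 to 517.

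The members and lists were chosen with earlier results of these data known. Values by library are printed for the 4 genes with the smallest p in each comparison of 2 groups, the 6 most variable genes, any gene called, and Ppara, Cpt1a, Fgf21 and Acadm. Of other lists called genes, or the 1 with the smallest p, are named, and further genes where they bear on how a list or its sum reads. Same-numbered libraries of different groups deviated together (r above 0.1) in 6 of 18 pairs, so numbers were not taken to pair samples.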

Additional observations from a re-analysis of the deposited data

How the results depend on the processing

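Of the 37 genes, edgeR called 0 in each of the 8 comparisons. DESeq2 called 3 in KO NSD against WT NSD, 1 in KO HSD against KO NSD and 2 in KO against WT averaged over both diets, and 0 in the others. Leaving out 1 library at a time gave 0 to 1 in KO NSD against WT NSD (Acot3 without KO NSD 2) and 0 to 1 in KO against WT averaged over both diets (Acot3 without KO HSD 3, Fgf21 without WT HSD 2). Over all genes, KO NSD against WT NSD gave 54 calls by edgeR, 645 by DESeq2, 29 by limma-voom, 106 in a fit of all 15 libraries, 175 in a fit of the 2 groups alone, 98 with the replicate block, 1 with effective transcript length as a covariate, 5 to 420 with 1 library left out (WT NSD 2 and KO NSD 2), and 0 without KO NSD 1 and KO NSD 3 (with the lone KO NSD library assumed to vary like the other groups). KO against WT averaged over both diets gave 114 calls by edgeR, 497 by DESeq2, 12 by limma-voom, 20 with the length covariate, 8 to 316 with 1 library left out (again WT NSD 2 and KO NSD 2) and 8 without KO NSD 1 and KO NSD 3. Without WT HSD 1 its median over the 37 genes was 0.10, with 25 above 0. With the replicate number as a block, edgeR called 0 of the 37 in every comparison of the 4 groups; 4 of 12 libraries correlated best with another of their own number. Of 786 alternative values of single genes, 0 changed direction, 735 kept their side of the threshold, 9 newly passed it and 42, all of Acadsb or Fitm1, no longer did. They belong to 39 results picked for a small p or by hand, and most fits share most libraries, so few reversals could arise. Over all 37 genes the median in WT HSD against WT NSD did change sign, from 0.22 to -0.05 without WT HSD 1. Dropping the libraries WT HSD 3 and WT NSD 3 at once was an alternative chosen after seeing the data. Under it the median of the 37 was 0.41 in WT HSD against WT NSD (33 above 0) and -0.59 in the difference of salt effects (35 below 0). The cause of these changes was not tested.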
